A study of Mus musculus with 6 samples.

Results

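The tricarboxylic acid (TCA) cycle and the enzymes that feed it with pyruvate and glutamine were examined for chromatin accessibility at 32 named genes. The cells were mouse CD8+ T cells labelled control or palmitate. Each gene was represented by its main region, the row of the deposited count matrix that lay within 1 kb of either end of the gene (mm10, RefSeq gene spans) and had the highest mean count. A main region was found for 31 of the 32 genes, and all 31 regions passed the count filter. Every member had a single such row. They are 31 of 24605 regions in the matrix, and 31 of the 8740 tested main regions that the same rule gives to all protein-coding genes. Idh2 had no row at its ends and is described from a region inside the gene.

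The TCA cycle is the mitochondrial ring of reactions that oxidises acetyl-CoA to carbon dioxide and passes electrons to the respiratory chain. Pyruvate from glycolysis enters through the mitochondrial pyruvate carrier and then through the pyruvate dehydrogenase complex, which kinases switch off and phosphatases switch on, or through pyruvate carboxylase. Glutamine carbon enters as alpha-ketoglutarate, formed from glutamate by glutamate dehydrogenase or by aminotransferases. Activated T cells draw on both routes for energy, for aspartate and for citrate exported to lipid synthesis.

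The cells were wild-type CD8+ T cells which the labels trace to mouse pancreas, spleen and lymph nodes, without strain, age or sex. The 3 palmitate libraries came from cells kept for 48 hours in complete T cell medium with 100 µM palmitate, a saturated fatty acid, and the 3 control libraries are labelled control. The treatment text in the labels names palmitate for all samples, so the groups follow the sample titles, and a vehicle is not stated. For each library 50000 FACS-purified cells entered ATAC-seq, in which the Tn5 transposase cuts open DNA and reads in a region measure its openness. Replicate numbers are given without stating if each stands for its own animal or culture, and the p-values therefore reflect variation among these 6 libraries, which is possibly technical alone.

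Counts in regions totalled 2219136 to 3089230 per library, and the first principal component separated the groups with control 2 nearest to the palmitate libraries (-26.4, against -42.6 and -37.0 for controls 1 and 3 and 29.1 to 39.4 for palmitate). Of the T cell and CD8 markers, 7 of 8 had a main region, with summed levels of 314 to 351 CPM (read count scaled to library size with TMM, not divided by region width) in control and 309 to 364 CPM in palmitate. The remaining marker, Trac, was not among the protein-coding genes placed here and was not looked up. B cell markers (5) and NK cell markers (3) had no gene-end row. Of the other lists, Zbtb7b was the 1 of 3 CD4 markers with a region (34.9 to 51.4 CPM in control, 46.5 to 73.4 in palmitate, and higher), Spi1 and Itgam the 2 of 5 myeloid markers (summed 12.6 to 20.4 and 20.05 to 24.5 CPM, with Itgam higher), and Cela1 the 1 of 6 pancreatic markers (35.4 to 44.4 and 28.9 to 42.6 CPM). Their part in the results on the TCA cycle genes was not tested.

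For 28 of the members the RefSeq promoter table (GRCm38.p6, the assembly of mm10) holds a transcription start that can be set against the main region, and in 28 of 28 that start lay inside the region. Where a gene had several listed starts (Mpc1, Pdk1, Pdk2, Pcx, Idh1 and Ogdh), the start nearest the middle of its region was taken. For these genes the match was therefore favoured by the choice. Pdp1, Idh3a and Sdhc had no entry. The regions had a median width of 645 bp, from 308 bp at Idh3b to 1170 bp at Mpc1. Counted from the start, they reached from -958 bp at Mpc2 to 777 bp downstream at Got2. A listed peak was present in all 6 libraries at 30 of the 31 regions, and at Idh3b in 4.

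**Figure D1:**
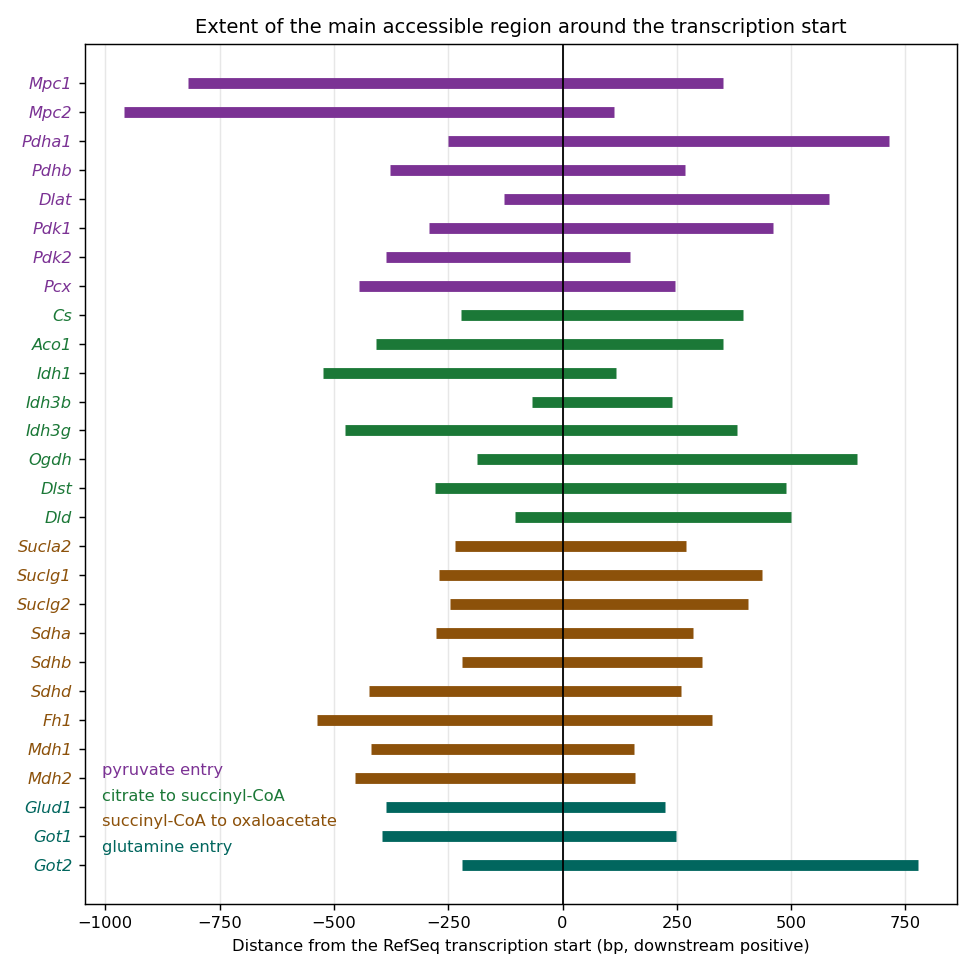
Extent of each main region (horizontal bar) along the distance from the RefSeq transcription start in bp, with downstream positive, for 28 member genes coloured by role. The start (vertical line at 0) is the listed one nearest the middle of the region. It lies inside all 28 regions, and the bars run from -958 bp at Mpc2 to 777 bp at Got2.

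Promoters of 4 members are printed for 2 pairs of related enzymes, in each of which 1 member passed with TMM and the other did not: Mdh1 and Mdh2, the cytosolic and mitochondrial malate dehydrogenases, and Pdhb and Dlat, subunits of the same pyruvate dehydrogenase complex. The choice of Mdh2, Pdhb and Dlat was made after their values were seen. Pdhb and Dlat also differ in strength (94.2th and 25.9th percentiles), and neither passed with trended offsets (0.09 and -0.14). Each run is the 250 bases before the RefSeq start, 5′ to 3′ on the gene's strand, at chr11:21571935-21572184 (minus) for Mdh1, chr5:135778399-135778648 (plus) for Mdh2, chr14:8172993-8173242 (minus) for Pdhb and chr9:50659781-50660030 (minus) for Dlat. Capitals mark every match, on either strand, to GGGCGG (SP/KLF), ATTGG (NF-Y) or TGACGTCA (CRE); the NRF1 consensus, CCGGAAG (ETS), CACGTG (E-box), AANATGGC (YY1) and TGANTCA (AP-1) were also searched and had no match in these 4.
Mdh1: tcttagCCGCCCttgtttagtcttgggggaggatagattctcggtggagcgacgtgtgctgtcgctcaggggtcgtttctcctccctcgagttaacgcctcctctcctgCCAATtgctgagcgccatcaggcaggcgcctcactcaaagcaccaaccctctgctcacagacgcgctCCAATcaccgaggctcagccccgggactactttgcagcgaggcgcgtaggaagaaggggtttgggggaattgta
Mdh2: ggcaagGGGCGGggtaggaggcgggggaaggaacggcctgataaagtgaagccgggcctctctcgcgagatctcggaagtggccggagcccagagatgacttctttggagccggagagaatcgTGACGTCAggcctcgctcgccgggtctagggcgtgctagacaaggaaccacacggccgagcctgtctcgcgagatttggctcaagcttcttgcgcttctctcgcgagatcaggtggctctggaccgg
Pdhb: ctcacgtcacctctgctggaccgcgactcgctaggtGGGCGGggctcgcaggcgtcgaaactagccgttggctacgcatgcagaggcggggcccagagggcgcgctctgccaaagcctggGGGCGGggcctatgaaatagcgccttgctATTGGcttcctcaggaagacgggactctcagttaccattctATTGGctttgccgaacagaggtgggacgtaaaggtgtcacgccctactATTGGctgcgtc
Dlat: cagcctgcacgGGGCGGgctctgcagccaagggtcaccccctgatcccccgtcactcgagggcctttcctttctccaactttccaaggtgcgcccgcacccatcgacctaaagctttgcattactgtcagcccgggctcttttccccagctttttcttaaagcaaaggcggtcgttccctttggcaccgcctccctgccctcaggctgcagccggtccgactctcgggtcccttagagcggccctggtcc

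Pdhb held 3 NF-Y matches and 2 SP/KLF matches, and Dlat held 1 SP/KLF match. Mdh1 held 2 NF-Y matches and 1 SP/KLF match, and Mdh2 held 1 CRE and 1 SP/KLF match. Among the 28 member windows, GGGCGG was found in 18 (64.3%), against 64.5% of the 9934 windows of the same length whose start lies in a tested region and 32.7% of all 32851 windows. ATTGG was found in 16 (57.1%), against 37.2% and 33.8%. NRF1 matches, which belong to a factor known for driving nuclear genes of mitochondrial proteins, were found in 3 members (10.7%; Sucla2, Sdha and Sdhd), against 10.5% and 3.74%. An ETS match was found in Mpc1, Idh3g, Sdhd and Glud1 (14.3%, against 17.002% and 6.91%). The remaining matches were the CRE in Ogdh and Mdh2 (7.14%, against 3.31% and 1.55%), the E-box in Pdk2 and Pcx (7.14%, against 9.42% and 6.02%) and YY1 in Idh3g (3.57%, against 5.12% and 3.91%). No member window held an AP-1 match (0 of 28, against 3.75% and 6.75%). The median GC content was 61.6% in member windows and 61.6% in windows with a start in a tested region. None of these motifs contains another, some genes have several windows in the table, and a match describes letters, not binding.

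Accessibility rose at 14 of the 31 member gene ends in palmitate, fell at 0 and did not pass at 17. The genes that rose were Mpc2, Pdhb, Pdk2, Pdp1 and Pcx of pyruvate entry. Grouped with the first part of the cycle were Cs, Aco1, Idh1, Idh3a, Idh3g and Ogdh, of which Aco1 and Idh1 encode cytosolic enzymes. The others were Fh1 and Mdh2 of the second part and Glud1 of glutamine entry. Calls are from the edgeR quasi-likelihood test at a false discovery rate of 0.05 over all tested regions, with TMM scaling between libraries. The same rule called 26.4% of all main gene-end regions higher and 1.92% lower, and 11.9% and 12.7% of all tested regions. Higher calls made up 48.5% of the calls over all regions. That share was 60.4% by DESeq2, 35.6% after upper-quartile scaling, 34.4% under trended offsets and 22.8% when libraries were scaled by their totals, which moved the overall median from -0.05 to -0.16. At an unadjusted p below 0.05, 19 members were higher and 0 lower, against 35.7% and 4.08% of main gene-end regions. These percentages cover gene ends of every strength, and a like-strength share at this threshold is not given here, so the 19 show no excess of the members. Limma-voom and DESeq2 called 15 and 11 members, also with 0 lower. The shares of gene ends that these methods called are not given here, so their counts describe the members only. In bulk ATAC-seq a change in the share of cells with an open region and a change in openness per cell cannot be told apart.

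The share of members called was that of gene ends of like strength. Fold changes in these libraries followed region strength, and the members are strong regions, with a median at the 77.8th percentile of main gene-end regions. For each member the 200 main gene-end regions nearest in abundance were taken, and the shares of these called higher add up to 13.8 of 31, against the 14 found (0.26 against 0 for lower). The median log2 fold change of the members was 0.22, against 0.15 over main gene-end regions and -0.05 over all tested regions. The members lay 0.03 (median, log2) above the median of their own 200, and 16 of 31 lay above it. The palmitate libraries all lay above the controls at 19 of 31 members, against 37.2% of main gene-end regions, and all lay below at 0. That percentage covers gene ends of every strength. A share at like strength, and a share lying below, are not given here, so these counts show no excess of the members. Across the 31 members the log2 fold change rose with log2 mean CPM (Pearson r 0.67, Spearman rho 0.54; members share the 6 libraries), as it did across main gene-end regions (r 0.53, n = 8740).

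A second scaling, trended offsets, removes in each library the dependence of counts on how strong a region is. With it 1 member was higher, Pdp1, and 1 was lower, Mdh1, against 2.48% and 1.33% of main gene-end regions. The member median became 0.06, against 0.05 over main gene-end regions, and the relation to strength across members was r -0.20 (rho -0.25). Of the 14 calls made with TMM, Pdp1 alone passed under both scalings. The trended log2 fold change was below 0 at Mpc2 (-0.06), Aco1 (-0.04), Idh3a (-0.02) and Ogdh (-0.04), members that rose with TMM.

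**Figure D2:**
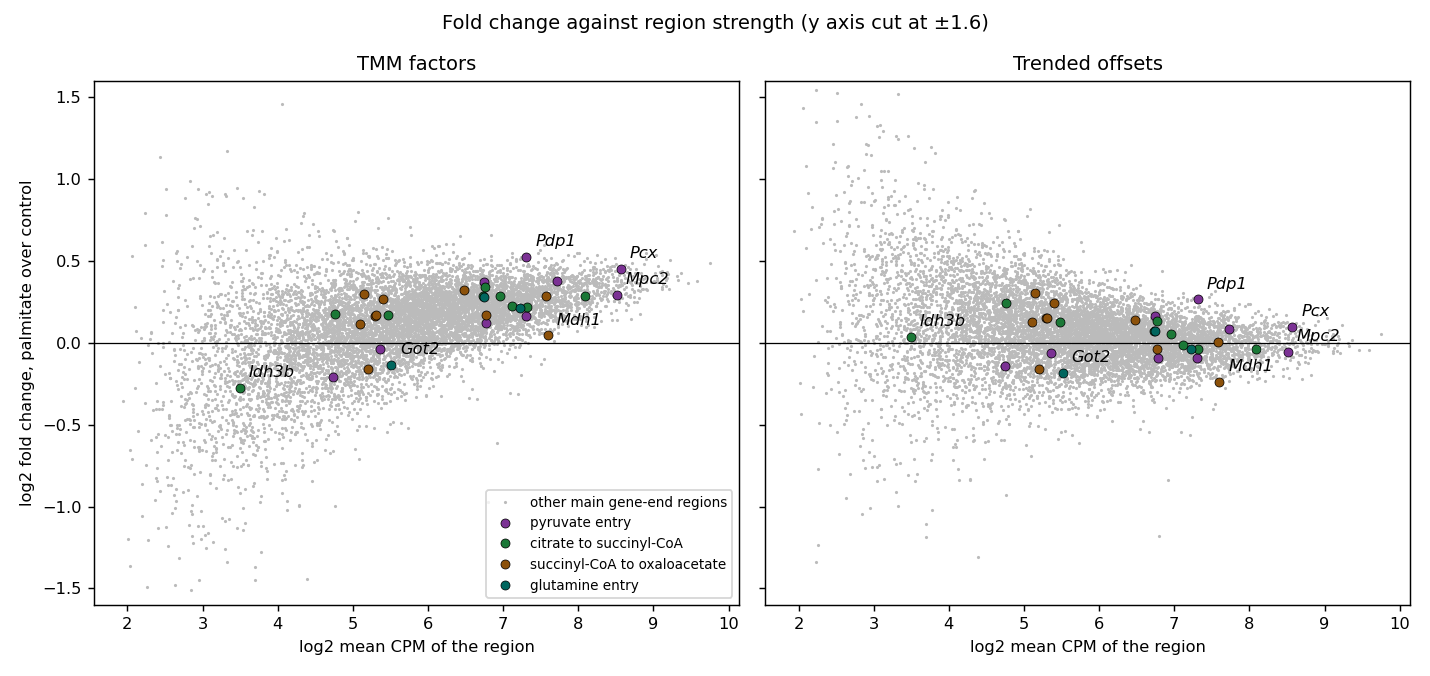
Log2 fold change (palmitate over control) against log2 mean CPM for all 8740 tested main gene-end regions (grey) and the 31 members (coloured by role), with TMM factors (left) and trended offsets (right). With TMM the cloud and the members climb with strength, and with trended offsets Pdp1 (0.27) and Mdh1 (-0.24) lie at opposite sides of the strong members.

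**Figure D3:**
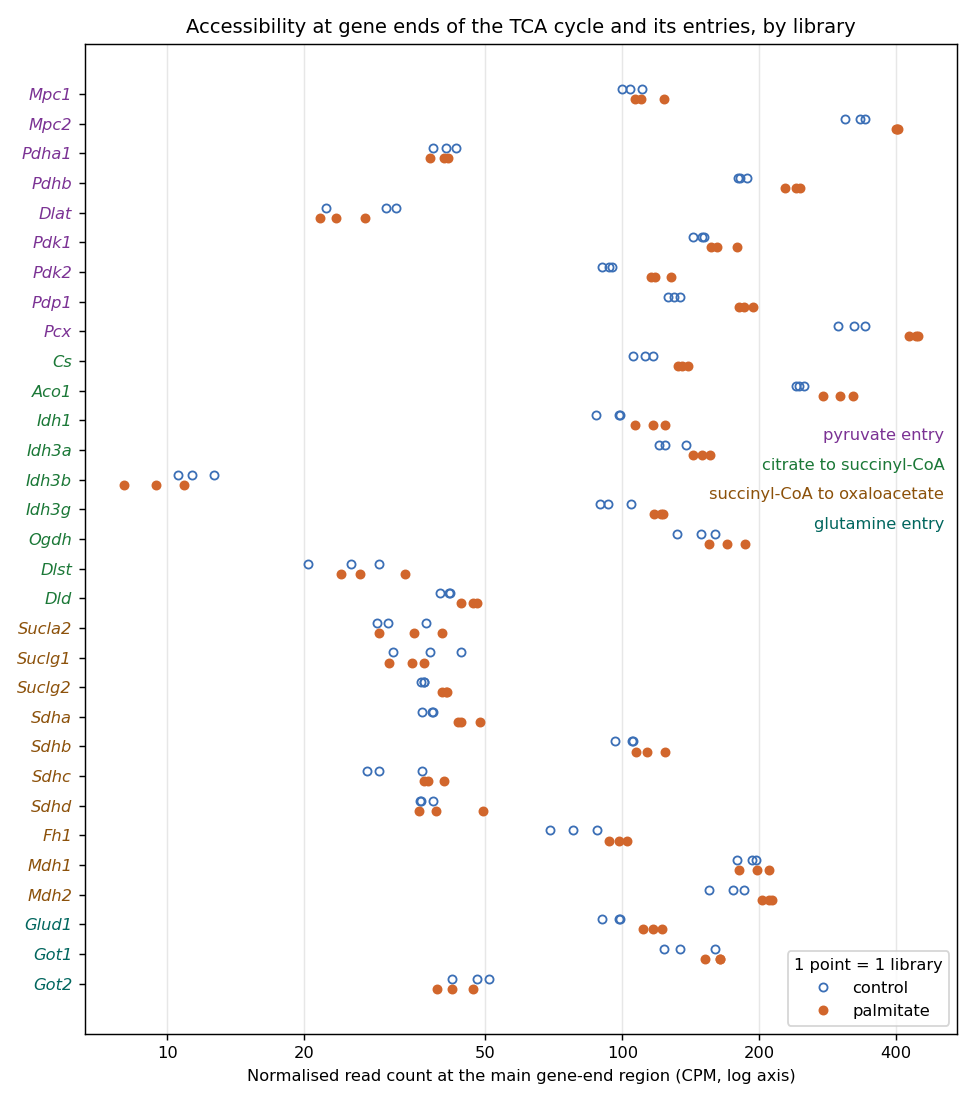
Normalised read count (CPM, log axis) at the main region of each of the 31 members, with 1 point per library (open, 3 control; filled, 3 palmitate) and genes in pathway order coloured by role. Control means run from 11.5 CPM at Idh3b to 328 CPM at Mpc2. The groups are apart at 19 genes, with palmitate higher at each, against 37.2% of main gene-end regions of every strength.

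At pyruvate entry 5 of 9 members rose, where gene ends of like strength would give 5.47, and Pdp1 had the largest log2 fold change of all members with TMM. With trended offsets Sdhc was above it (0.31 against 0.27) but did not pass (adjusted edgeR p 0.206). Pdp1 encodes the catalytic subunit of the phosphatase that removes the inhibitory phosphates from pyruvate dehydrogenase. Its region (chromosome 4, 11966255 to 11966894) had 130, 126 and 134 CPM across controls 1 to 3 and 180, 186 and 194 CPM across palmitate 1 to 3. Every palmitate library stood above every control. The log2 fold change was 0.52 ± 0.071 (SE; adjusted edgeR p 6.09e-06), and 1 of the 200 gene ends of like strength, 0.5%, lay above it. With trended offsets it was 0.27 (adjusted edgeR p 0.0128). Under that scaling the adjusted p was 0.0592 without control 3 and 0.0748 without palmitate 3, with log2 fold changes of 0.27 and 0.25, and it stayed below 0.05 without any of the other 4 libraries.

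The regulatory subunit of the same phosphatase, Pdpr, moved the same way. Pdpr was on a list of 37 further genes of the pathway. Its region (chromosome 8, 111094324 to 111094866) had 37.5, 31.9 and 37.4 CPM across controls 1 to 3 and 50.1, 53.0 and 44.1 CPM across palmitate 1 to 3, so that the groups did not overlap. The log2 fold change was 0.47 ± 0.13 (SE; adjusted edgeR p 0.00815), with 3.0% of gene ends of like strength above it, and 0.44 with trended offsets (0.0412). It passed in 17 of 18 alternatives, the exception being without palmitate 2 (0.0536). The 18 include gene-end distances of 0.5 and 2.5 kb, which reuse the main fit and could change a value only through another region. With trended offsets, which were among the 17, no fit that left out a library passed (0.0548 to 0.153). Pdp2, the other catalytic subunit, named after its values were seen like the other further genes below that did not pass with TMM, was at 67.5 CPM in control and 69.0 in palmitate (log2 fold change 0.03, adjusted edgeR p 0.835).

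Of the kinases that oppose these phosphatases, Pdk2 passed with TMM and Pdk1 did not; the difference between them was not tested. Pdk1, a kinase induced under hypoxia, had 143, 151 and 150 CPM across controls 1 to 3 and 156, 178 and 161 CPM across palmitate 1 to 3. Its groups did not overlap, but the difference did not pass (log2 fold change 0.16 ± 0.073 SE, adjusted edgeR p 0.101). Pdk2, a broadly expressed kinase, rose from 94.99, 93.5 and 90.4 CPM to 128, 116 and 118 CPM (log2 fold change 0.37 ± 0.081 SE, adjusted edgeR p 0.00111), and with trended offsets it did not pass (0.16, 0.226). Pdk3, from the list of further genes, stood at 50.0 and 49.1 CPM (adjusted p 0.900).

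Pdp1 and Pdk1 are of nearly equal strength, at the 88.6th and 88.5th percentiles, so the strength trend is nearly the same for both, and their ratio within a library does not depend on the scaling factor. The ratio of Pdp1 to Pdk1 counts was 0.909, 0.833 and 0.893 across controls 1 to 3 and 1.151, 1.04 and 1.20 across palmitate 1 to 3. The ratio was thus lower in every control than in every palmitate library. The log2 ratio was 0.36 higher in palmitate, with an exact two-sided permutation p of 0.1 (n = 3 per group), which is the smallest that 3 against 3 allows (adjusted 0.2 over 2 ratios). The pair was chosen after the values were seen.

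**Figure D4:**
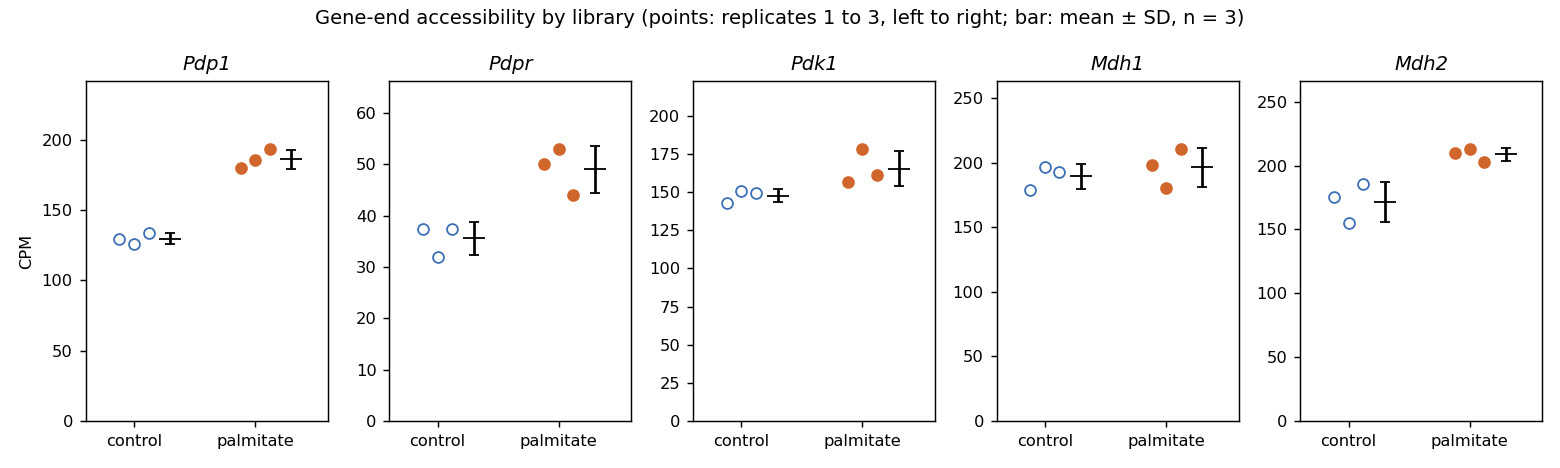
CPM at the main regions of Pdp1, Pdpr, Pdk1, Mdh1 and Mdh2 in 3 control (open) and 3 palmitate (filled) libraries, each axis starting at 0, with the mean ± SD (n = 3) beside each group. Palmitate libraries lie above all controls at Pdp1, Pdpr, Pdk1 and Mdh2, and the groups overlap at Mdh1.

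The pyruvate dehydrogenase complex turns pyruvate into acetyl-CoA. Pdhb, the beta subunit of its first enzyme, rose from 181, 179 and 188 CPM across controls 1 to 3 to 227, 241 and 246 CPM across palmitate 1 to 3 (chromosome 14, 8172725 to 8173369; log2 fold change 0.38 ± 0.066 SE, adjusted edgeR p 9.68e-05). Pdha1, the alpha subunit of the same enzyme, had 38.3, 40.9 and 43.2 CPM and 40.6, 37.7 and 41.4 CPM. Its groups overlapped, and the 95% interval of its log2 fold change ran from -0.30 to 0.22. Dlat, the acetyltransferase core, had 31.8, 22.3 and 30.3 CPM in controls and 21.7, 23.4 and 27.2 CPM in palmitate libraries (-0.21, interval -0.56 to 0.14). Dld, the dehydrogenase that this complex shares with the alpha-ketoglutarate dehydrogenase complex, went from 41.0 ± 1.19 to 46.3 ± 1.98 CPM (mean ± SD, n = 3; log2 fold change 0.17, adjusted edgeR p 0.320). Of the 4 member genes of the complex, 1 passed with TMM, where gene ends of like strength would give 1.06. With trended offsets 0 passed (Pdhb 0.09, adjusted edgeR p 0.396), and at an unadjusted p below 0.05 with TMM it was 1. Pdhx, a further component from the list of further genes, went from 140 to 154 CPM without overlap and did not pass (0.13, adjusted edgeR p 0.186, and -0.12 with trended offsets). Of the gene ends as strong as Pdhb 84.0% were called higher, around a median of 0.30, against 9.5% and 0.09 for Pdha1 and 3.0% and 0.06 for Dlat. Differences between the subunits were not tested.

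The mitochondrial pyruvate carrier is a pair of Mpc1 and Mpc2. Mpc2 had 341, 333 and 309 CPM across controls 1 to 3 and 400, 403 and 401 CPM across palmitate 1 to 3, in a region (chromosome 1, 165460302 to 165461372) shared with an end of Dcaf6. The palmitate libraries stood above the controls and close together (SD 1.87 CPM, n = 3). Its log2 fold change of 0.29 ± 0.058 (SE; adjusted edgeR p 0.000434) lay below the 0.35 of gene ends of like strength, of which 97.0% were called higher. Mpc1 went from 105 ± 5.43 to 113 ± 9.02 CPM (SD, n = 3) and did not pass (0.12, adjusted edgeR p 0.303). Pcx, the pyruvate carboxylase that makes oxaloacetate, rose from 341, 298 and 323 CPM to 441, 426 and 446 CPM (chromosome 19, 4510026 to 4510719). The rise of Pcx was the largest among the members after Pdp1 (0.45 ± 0.060 SE, adjusted edgeR p 4.19e-06), and 9.5% of gene ends of like strength lay above it. With trended offsets Pcx did not pass (0.10, adjusted edgeR p 0.235).

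In the part of the cycle from citrate to succinyl-CoA, 6 of 9 measured members rose and 3 did not pass, and gene ends of like strength would give 4. The 6 include the cytosolic enzymes Aco1 and Idh1. Cs, the citrate synthase that opens the cycle, had 112, 106 and 117 CPM across controls 1 to 3 and 136, 133 and 140 CPM across palmitate 1 to 3 (log2 fold change 0.29 ± 0.077 SE, adjusted edgeR p 0.00671; chromosome 10, 128337505 to 128338122). Aco1, the cytosolic aconitase that doubles as an iron-regulated RNA-binding protein, rose from 246 ± 5.23 to 299 ± 23.3 CPM (SD, n = 3; 0.29, adjusted edgeR p 0.00156). With trended offsets Aco1 did not pass (-0.04).

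The isocitrate dehydrogenases fall into NADP-dependent enzymes, Idh1 in the cytosol and Idh2 in mitochondria, and the NAD-dependent mitochondrial enzyme built from Idh3a, Idh3b and Idh3g. Idh1 rose from 94.8 ± 6.24 to 116 ± 8.56 CPM (SD, n = 3; 0.28, adjusted edgeR p 0.0132) in a region shared with Pikfyve. This call was lost without control 1 (0.0666) or palmitate 3 (0.0883). It was also lost with total counts, trended offsets and regions in all 6 peak lists (passed in 13 of 18 alternatives). Idh2 had a region of 37.2 ± 5.50 CPM in control and 38.2 ± 4.15 in palmitate (SD, n = 3; log2 fold change 0.03 ± 0.14 SE, adjusted edgeR p 0.899) at chromosome 7, 80114962 to 80115640. It lies 2968 bp from the gene's outer end and contains the start of a RefSeq transcript at 80115350.

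Of the NAD-dependent enzyme, the subunits Idh3g and Idh3a rose. Idh3g had 105, 89.5 and 92.8 CPM in controls and 123, 122 and 117 CPM in palmitate libraries, without overlap (0.34 ± 0.083 SE, adjusted edgeR p 0.00271; X chromosome, 73786515 to 73787373, shared with Ssr4). Idh3a had 121, 124 and 138 CPM and 143, 150 and 156 CPM (0.23, adjusted edgeR p 0.0277), a call lost without control 1 (0.104), control 2 (0.0555), palmitate 2 (0.0678) or palmitate 3 (0.122). Idh3a passed in 8 of 18 alternatives, and its call was also lost with DESeq2, total counts, upper-quartile scaling and regions in all 6 peak lists. Idh3b, at 10.5 to 12.6 CPM in control and 8.05 to 10.9 in palmitate, had the fewest counts of all members, and its log2 fold change of -0.28 had an interval from -0.79 to 0.24. Gene ends as weak as Idh3b had a median of -0.19. None of the 3 passed with trended offsets (0 of 3 at an adjusted edgeR p below 0.05), where the log2 fold changes were 0.13 for Idh3g, -0.02 for Idh3a and 0.04 for Idh3b.

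The alpha-ketoglutarate dehydrogenase complex makes succinyl-CoA. Ogdh, its first enzyme, had 159, 132 and 149 CPM across controls 1 to 3 and 186, 155 and 170 CPM across palmitate 1 to 3. The groups overlapped, with palmitate 2 below control 1. It passed narrowly (0.22 ± 0.079 SE, adjusted edgeR p 0.0407), and not without control 2 (0.166), control 3 (0.0706), palmitate 1 (0.213) or palmitate 3 (0.104). Ogdh passed in 8 of 18 alternatives, and its call was also lost with DESeq2, total counts, upper-quartile scaling and regions in all 6 peak lists. Dlst, its succinyltransferase, went from 25.0 ± 4.41 to 28.0 ± 4.83 CPM (SD, n = 3) and did not pass (0.18, adjusted edgeR p 0.493).

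From succinyl-CoA to oxaloacetate 2 of 10 members rose, Fh1 and Mdh2, and 8 did not pass, where gene ends of like strength would give 3.02. Succinate dehydrogenase, which is also complex II of the respiratory chain, had 4 regions of which 0 passed in edgeR, limma-voom or DESeq2, while 3 were higher at an unadjusted p below 0.05. Gene ends of the same strength would give 0.735 calls by edgeR. Of main gene-end regions of every strength, 35.7% were higher at an unadjusted p below 0.05. The 4 regions have a median at the 40.9th percentile of strength, and a like-strength share at the unadjusted threshold is not given here. Sdha, the flavoprotein subunit, had 38.3, 38.3 and 36.4 CPM in controls and 44.1, 43.5 and 48.7 CPM in palmitate libraries (log2 fold change 0.27 ± 0.13 SE, adjusted edgeR p 0.118; also near Ccdc127). Sdhc, a membrane anchor, had 29.2, 36.3 and 27.5 CPM and 36.7, 37.4 and 40.6 CPM (0.30 ± 0.145 SE, adjusted edgeR p 0.136). At each of these subunits, and at Sdhb, all palmitate libraries lay above all controls.

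Sdhb, the iron-sulphur subunit, had 105, 96.2 and 105 CPM and 107, 124 and 113 CPM (0.17, adjusted edgeR p 0.127). Sdhd, the other anchor, had 38.3, 35.9 and 36.0 CPM and 39.0, 35.7 and 49.5 CPM, so its mean rested on palmitate 3 (0.17, adjusted edgeR p 0.400; region shared with Timm8b and Nkapd1). Without control 2, which was the highest control at Sdhc, Sdhc passed (0.43, adjusted edgeR p 0.0331). The median log2 fold change of the 4 subunits was 0.22, and 3 of the 4 lay above the median of gene ends of like strength, by 0.18 at Sdha, 0.24 at Sdhc and 0.10 at Sdhd. With trended offsets the values were 0.24, 0.31 and 0.15, and -0.04 at Sdhb. Of the assembly factors of the enzyme on the list of further genes, Sdhaf2 rose (0.39 ± 0.085 SE, adjusted edgeR p 0.000994, shared with Cpsf7), and Sdhaf1, Sdhaf3 and Sdhaf4 did not pass (0.13, 0.23 and -0.01).

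Succinyl-CoA ligase pairs the alpha subunit Suclg1 with the ATP-forming Sucla2 or the GTP-forming Suclg2. None of its 3 gene ends passed in edgeR, limma-voom or DESeq2, and 0 had an unadjusted p below 0.05, where gene ends of like strength would give 0.205 edgeR calls. Suclg2 had 36.6, 36.6 and 36.0 CPM in controls and 40.2, 41.1 and 41.0 CPM in palmitate libraries, with no overlap and a log2 fold change of 0.16 (adjusted edgeR p 0.380). Sucla2 stood at 32.2 ± 4.31 and 34.7 ± 5.46 CPM and Suclg1 at 37.8 ± 6.44 and 34.0 ± 3.01 CPM (SD, n = 3), with log2 fold changes of 0.11 and -0.16. Fh1, the fumarase, had 78.0, 69.2 and 88.1 CPM in controls and 98.1, 102 and 93.6 CPM in palmitate libraries (0.32 ± 0.094 SE, adjusted edgeR p 0.011). Its groups did not overlap, and the call was lost without control 2 (0.0670) or palmitate 2 (0.0527). Fh1 passed in 12 of 18 alternatives, and also failed with DESeq2, total counts, trended offsets and regions in all 6 peak lists.

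The malate dehydrogenases have regions of nearly equal strength, at the 92.7th (Mdh1) and 92.4th (Mdh2) percentiles. Mdh1, the cytosolic enzyme of the malate-aspartate shuttle, had 179, 197 and 193 CPM across controls 1 to 3 and 198, 180 and 211 CPM across palmitate 1 to 3 (chromosome 11, 21571778 to 21572353, shared with Wdpcp). The groups overlapped, and the log2 fold change was 0.05 (interval -0.10 to 0.19; adjusted edgeR p 0.677). Of the gene ends of like strength 98.5% lay above it and 83.0% were called higher, around a median of 0.30. With trended offsets Mdh1 was lower (-0.24, adjusted edgeR p 0.0326). Under that scaling it passed without control 1 (0.0236) or palmitate 3 (0.0476), but not without control 2 (0.0940), control 3 (0.105), palmitate 1 (0.0572) or palmitate 2 (0.197).

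Mdh2, the malate dehydrogenase of the cycle itself, had 175, 155 and 185 CPM across controls 1 to 3 and 210, 213 and 203 CPM across palmitate 1 to 3 (chromosome 5, 135778195 to 135778807, shared with Styxl1). Every palmitate library stood above every control (0.28 ± 0.071 SE, adjusted edgeR p 0.00379). This was the rise of gene ends of like strength, whose median was 0.29, and with trended offsets the value was 0.01. The ratio of Mdh2 to Mdh1 counts was 0.980, 0.787 and 0.961 across controls 1 to 3 and 1.06, 1.18 and 0.965 across palmitate 1 to 3. The ratios overlapped, and the log2 ratio was 0.24 higher in palmitate (exact two-sided permutation p 0.2, n = 3 per group, adjusted 0.2). As with Pdp1 and Pdk1, the pair was chosen after the values were seen. The adjustment covers only the ratios computed, not all pairs that could have been chosen.

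At glutamine entry 1 of 3 members rose, where gene ends of like strength would give 1.28. Glud1, the glutamate dehydrogenase, had 90.2, 98.5 and 98.6 CPM in controls and 111, 122 and 117 CPM in palmitate libraries (0.28 ± 0.082 SE, adjusted edgeR p 0.0115; chromosome 14, 34310341 to 34310952, shared with Shld2). The groups did not overlap, and the call was lost without control 1 (0.0540) or palmitate 2 (0.0628). It was also lost with total counts, trended offsets and regions in all 6 peak lists (passed in 13 of 18 alternatives). Got1, the cytosolic aspartate aminotransferase, had 160, 124 and 134 CPM and 152, 164 and 164 CPM and lay just outside the threshold (0.21 ± 0.081 SE, adjusted edgeR p 0.0504; below it in 5 of 18 alternatives). Control 1 was the highest control there, and without it Got1 passed (0.32, adjusted edgeR p 0.00677), as it did without palmitate 1 (0.0496).

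Got2, the mitochondrial aminotransferase, had 47.9, 42.3 and 51.0 CPM in controls and 42.2, 46.9 and 39.1 CPM in palmitate libraries. Its groups overlapped, its log2 fold change of -0.13 had an interval from -0.39 to 0.12, and 90.0% of gene ends of like strength lay above it. The shuttle enzymes Mdh1, Mdh2, Got1 and Got2 all lay below the medians of their like-strength gene ends, with differences of -0.25, -0.0027, -0.05 and -0.25 (log2).

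**Figure D5:**
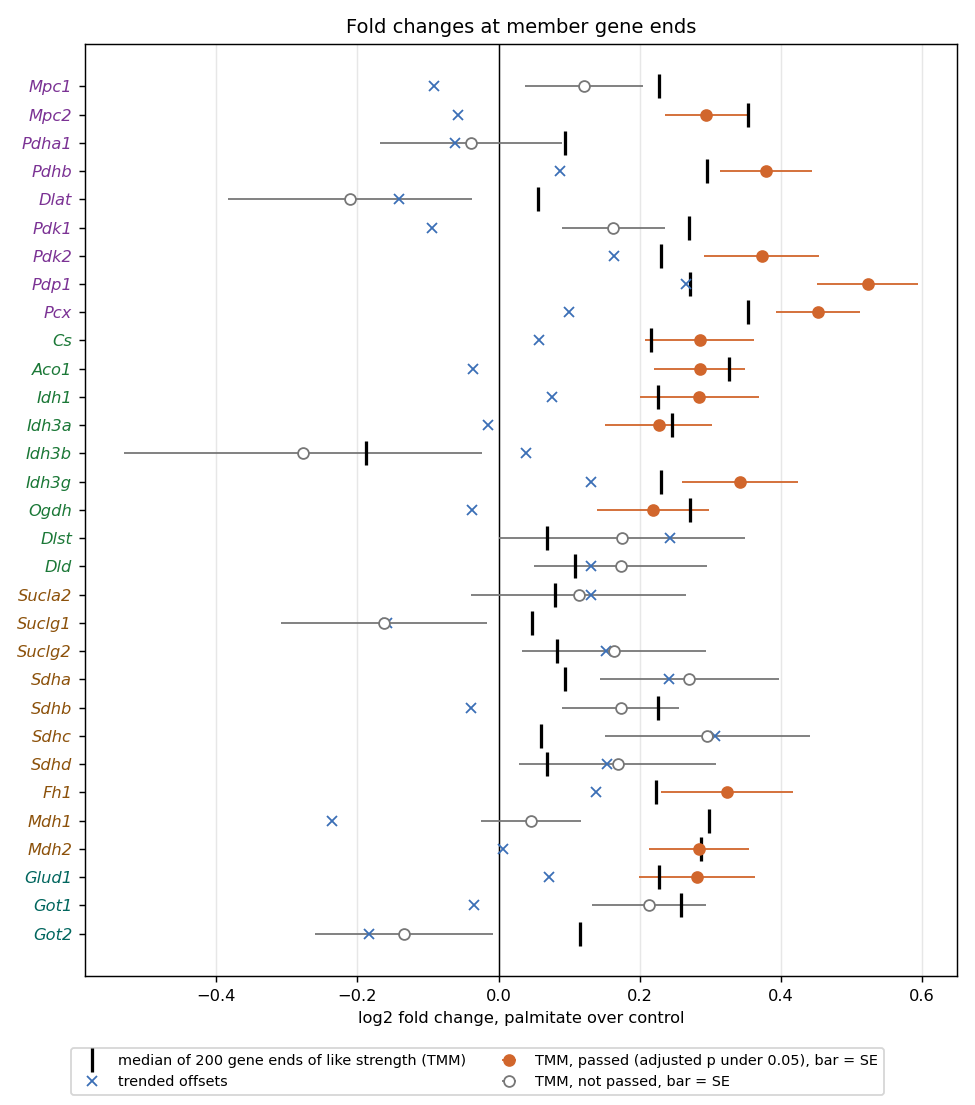
Log2 fold change (palmitate over control) of the 31 members with TMM (circles with SE bars, filled where the adjusted p passed), with trended offsets (crosses), and the median of 200 gene ends of like strength (vertical ticks), in pathway order. Pdp1 lies to the right of its tick, Mdh1, Dlat, Got2 and Suclg1 lie to the left of theirs, and Mdh2 lies on it.

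On the list of 37 further genes of the pathway, 27 had a main region, of which 7 rose, 0 fell and 20 did not pass with TMM, while gene ends of like strength would give 8.73. At an unadjusted p below 0.05, 9 were higher and 1 lower, against 35.7% and 4.08% of main gene-end regions of every strength. Limma-voom and DESeq2 called 7 and 5, without a share of gene ends to set beside them. Besides Pdpr and Sdhaf2, those that rose included Acss2 (log2 fold change 0.35, adjusted edgeR p 0.000412) and Acly (0.22, 0.0160), which make cytosolic acetyl-CoA from acetate and citrate, the lactate and pyruvate transporter Slc16a1 (0.34, 0.0195) and the mitochondrial malic enzyme Me2 (0.23, 0.0311). The median over the 27 was 0.13, against 0.15 over main gene-end regions. The glutamine genes Slc1a5, a transporter, Glul, the glutamine synthetase, and Gls2, a glutaminase, did not pass (0.18, 0.15 and -0.14, adjusted edgeR p 0.269, 0.203 and 0.524).

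With trended offsets 2 of the 27 passed, Pdpr upward and Sirt4 downward. Sirt4 encodes a mitochondrial sirtuin that acts on glutamate dehydrogenase and the pyruvate dehydrogenase complex. Its region (chromosome 5, 115488936 to 115490732) had 190, 186 and 199 CPM across controls 1 to 3 and 173, 184 and 179 CPM across palmitate 1 to 3. The palmitate libraries lay below the controls by little (log2 fold change -0.10 ± 0.068 SE, adjusted edgeR p 0.307 with TMM), where gene ends of like strength rose by a median of 0.29. With trended offsets the value was -0.37 (adjusted edgeR p 0.000276), and it passed without each library in turn (0.00015 to 0.00726).

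Inside the member genes, more than 1 kb from their ends, the matrix held 11 regions at 10 genes. With TMM 3 were lower and 0 higher. Of all regions inside genes and away from every gene end, 19.6% were lower (6.05% with trended offsets), and the share that was higher is not given here. The Pcx region among the 11 lies at an end of Lrfn4, so it is outside that set. The 3 lower regions lay in genes of succinyl-CoA ligase, 1 in Sucla2 and 2 in Suclg2. The Sucla2 region (chromosome 14, 73578290 to 73578498) had raw counts of 21, 29 and 27 across controls 1 to 3 and 15, 10 and 12 across palmitate 1 to 3 (log2 fold change -1.02 ± 0.31 SE, adjusted edgeR p 0.0156). The Suclg2 regions had 23, 21 and 25 counts against 10, 14 and 10 (95621769 to 95622027; -0.996 ± 0.32 SE, adjusted edgeR p 0.0223) and 10, 19 and 15 against 6, 5 and 8 (95614538 to 95614739; -1.16 ± 0.40 SE, adjusted edgeR p 0.0321). These regions held few reads, and 2 or 3 of the 6 peak lists held them. Which group's lists these were is not given here. If they were control lists, the rows may owe their place in the matrix to the group where they are high. The lower calls therefore describe these rows only.

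With trended offsets or DESeq2 0 of the 11 inner regions passed, and 1 was left without control 3, palmitate 1, palmitate 2 or palmitate 3. The other 8 had log2 fold changes from -0.50 in Sdha to 0.16 in Pcx and did not pass. The strongest of them, inside Idh1 (chromosome 1, 65178170 to 65179364), had 76.1 ± 5.04 CPM in the controls and 79.5 ± 7.82 CPM with palmitate (SD, n = 3; log2 fold change 0.06).

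By library, the median of the members relative to their own means was -0.11, -0.12 and -0.09 (log2) across controls 1 to 3 and 0.05, 0.14 and 0.13 across palmitate 1 to 3. Over main gene-end regions the same medians were -0.08, -0.08 and -0.06, and 0.07, 0.09 and 0.08. The controls were thus all below and the palmitate libraries all above, in the members as in gene ends at large. Palmitate 1 was the palmitate library nearest to the controls in the members. Together the 31 regions took 0.339% to 0.347% of a control library's counts and 0.377% to 0.388% of a palmitate library's. Palmitate 3 was the highest of the 6 libraries at 13 members and palmitate 2 at 10, while control 2 was the lowest at 11.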

How the data were processed

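ATAC-seq was measured in 6 libraries, 3 control and 3 palmitate. Per the submitters' processing notes, the authors used the mm10 build, MACS2 2.2.8, Bowtie2 2.5.1, edgeR 3.40.2, Trim Galore 0.6.10 and Picard 2.23.8, without recorded settings. The deposited matrix holds raw counts of 24605 regions. The authors' deposited peak lists carry a MACS2 score, and the lists were used only to count how many of the 6 libraries had a peak in a region. Library sizes were 2219136 to 3089230 counts, and the common biological coefficient of variation was 0.0659.

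Regions were tested with edgeR 4.0.16 (R 4.3.3; quasi-likelihood F test, TMM factors, filterByExpr, Benjamini-Hochberg adjustment over 24316 tested regions, 289 removed). Trended offsets were loess fits (span 0.3, pseudocount 0.5 reads) of each library on mean abundance. DESeq2 1.42.0, limma 3.58.1 (voom), other scalings, filters, left-out libraries, gene-end distances of 0.5 and 2.5 kb and a false discovery rate of 0.1 were alternatives. The pipeline was tested on simulated data. Genes were placed with RefSeq spans of GRCm38.p6. The rule for names took all 32 members and the further genes called at 0.05, of which 1 is not reported here. The rule for sequences took promoters of members passing under both scalings and, for contrast, of the member with the largest p among the strongest members (Mdh1). The members, the further genes and the marker lists were chosen with earlier results of these data known.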

Additional observations from a re-analysis of the deposited data

How the results depend on the processing

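Of 557 recomputed values of single member genes, 489 kept their direction and side of the threshold and 18 changed sign. Of 252 values of called members 48 lost the call, 4 of them with a change of sign, and 7 values of other members gained it, 1 of them with a change of sign (Mdh1). The number of calls over all regions, 5972 with TMM, was 1543 with trended offsets (1334 with the replicate block added), 3124 with DESeq2 and 2838 among regions in all 6 peak lists. It was 3997 to 6165 with a library left out, and with trended offsets 747, 2480 and 497 without controls 1 to 3 and 1020, 777 and 648 without palmitate 1 to 3. Member calls, 14 with TMM, were 7 with total counts, 7 among regions in all 6 peak lists, 2 with trended offsets, and 11 to 14 with a library left out. With trended offsets they were 0 to 2 with a library left out (0 without control 3) and 2 with the replicate block. The member median of 0.22 became 0.16 after upper-quartile scaling, 0.10 with total counts, 0.057 with trended offsets, 0.13 among regions in all 6 lists, and 0.20 to 0.26 with a library left out. Calls among the further genes were 4 after upper-quartile scaling, 2 with trended offsets, 4 among regions in all 6 lists and 5 to 8 with a library left out. Inner-region calls were 0 with trended offsets, DESeq2 or regions in all 6 lists, and 1 to 2 with a library left out. The causes were not tested.

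Signs changed with total counts at Sucla2 (-0.0018) and Mdh1 (-0.070), after upper-quartile scaling at Mdh1 (-0.011), and among regions in all 6 lists at Mdh1 (-0.042). With trended offsets they changed at Mpc1 (-0.092), Mpc2 (-0.057), Pdk1 (-0.095), Aco1 (-0.036), Idh3a (-0.015), Idh3b (0.039), Ogdh (-0.037), Sdhb (-0.039), Mdh1 (-0.24) and Got1 (-0.035). With a library left out, Pdha1 ran from -0.076 to 0.028, Sucla2 from -0.0047 to 0.26 and Mdh1 from -0.0032 to 0.11. With trended offsets Mdh1 was -0.28, -0.18 and -0.24 without controls 1 to 3 and -0.26, -0.17 and -0.28 without palmitate 1 to 3. Same-numbered libraries did not deviate together (correlations 0.000449, -0.104 and -0.027). With so few libraries per group, these correlations cannot show whether the numbers pair the samples. The replicate block gave 5533 calls over all regions and 14 among members.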
